A study of Mus musculus with 4 samples.

Results

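The 10 genes described here encode secreted signals that mammary epithelial cells can make: the colony-stimulating factors Csf3 and Csf1, the cytokines Lif, Il24 and Tslp, and the chemokines Cxcl1, Cxcl2, Cxcl14, Cxcl15 and Ccl2. They were 10 of the 31781 genes with counts in any of the files, and all 10 had counts in every library. They were chosen by name as ligands with measured expression in these epithelial cells, so their levels are given as a description and are not tested. The libraries were made from dissociated mammary cells of the MMTV-PyMT model. In these mice the mouse mammary tumor virus promoter drives the polyoma middle T oncogene in mammary epithelium, so all 4 groups carried that transgene. The groups were PKA tumor (genotype "PKA activated", 2638 annotated cells) and WT tumor (wild type, 5181 cells), both labelled 16 to 20 weeks old, and PKA hyperplasia (PKA activated, 3818 cells) and WT hyperplasia (wild type, 3808 cells), both 8 to 9 weeks old. The series' design text gives 22 weeks for the tumors. PKA is the cyclic AMP-dependent protein kinase. How it was activated, in which cells, and which FACS gate was used are not given in the sources used here. No treatment was given, and the number of mice behind each library is not stated.

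Each group was 1 library, so no test between groups was possible. Differences are given as log2 ratios of CPM, the UMIs of a gene scaled to a common library total, with exact 95% intervals, and shares, where a range follows them, with exact Clopper-Pearson intervals; both cover counting error only and not the spread between mice. A UMI (unique molecular identifier) marks 1 captured RNA molecule. The annotated cells held 16758734 UMIs in PKA tumor, 24499374 in WT tumor, 10648097 in PKA hyperplasia and 10797950 in WT hyperplasia, and the median cell had 5890.5, 4391, 2557 and 2637.5 UMIs in that order. Glands were digested for longer and with more enzymes than tumors, so stage cannot be told apart from dissociation or age. Between 16 and 24 cell barcodes were shared by each pair of libraries. Of the authors' classes, 3 are shown here by 1 marker each from a longer list. Luminal Progenitor 1 had 1302, 1017, 1093 and 1279 CPM of Cd14 in PKA tumor, WT tumor, PKA hyperplasia and WT hyperplasia. Mature Luminal had 2661, 1738, 3695 and 2580 CPM of Prlr in that order. Basal had 4226 CPM of Krt14 in PKA hyperplasia and 2972 CPM in WT hyperplasia. Marker levels of Lumino-Basal and Luminal Progenitor 2 are not given here. In the class labelled EMT-like, Trim29 and Cldn6 were at 0 in both tumors. Vim there had 25.8 CPM (PKA tumor), against 10.6 CPM (WT tumor). Neither was above Luminal Progenitor 1 of the same library, at 29.6 and 21.7 CPM. Other markers of these classes are left out here, and the fit of the class labels was not tested. Luminal Progenitor 1 held 2157, 2343, 2885 and 2722 cells in the 4 libraries. Basal and Luminal Progenitor 2 were classes of the hyperplasia libraries, and Lumino-Basal and EMT-like were classes of the tumor libraries. Cells with UMIs of at least 2 markers of other cell types made up 11.9% of PKA tumor, 4.28% of WT tumor, 4.14% of PKA hyperplasia and 4.33% of WT hyperplasia. These shares are not matched for depth.

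Chemokines are small secreted proteins that bind receptors on leukocytes and direct their movement. Cxcl1, Cxcl2 and Cxcl15 belong to the group that acts on neutrophils, Ccl2 draws monocytes, and Csf3 (G-CSF) and Csf1 (M-CSF) drive the production and survival of neutrophils and macrophages. Mammary luminal progenitors are an epithelial source of such signals, and transcription of several of them is known to depend on NF-kappa B, whose own inhibitor Nfkbia is among its targets.

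Cxcl15, Cxcl1 and Cxcl2 lie in 1 cluster on mouse chromosome 5 (GRCm38, GENCODE annotation, forward strand). Cxcl15 spans chr5:90794534-90803067, Cxcl1 spans chr5:90891241-90893115 and Cxcl2 spans chr5:90903871-90905938, with 88.2 kb between Cxcl15 and Cxcl1 and 10.8 kb between Cxcl1 and Cxcl2. Cxcl1 and Cxcl2 were highest in other classes than Cxcl15, so the 3 promoters are shown together. The RefSeq windows (GRCm38.p6, forward strand, 250 bases before to 50 after the start) are chr5:90890995-90891294 for Cxcl1, chr5:90903649-90903948 for Cxcl2 and chr5:90794284-90794583 for Cxcl15. Capitals mark matches to the kappa B motif in Cxcl1 and Cxcl2 and to TATAAA in Cxcl15.
Cxcl1: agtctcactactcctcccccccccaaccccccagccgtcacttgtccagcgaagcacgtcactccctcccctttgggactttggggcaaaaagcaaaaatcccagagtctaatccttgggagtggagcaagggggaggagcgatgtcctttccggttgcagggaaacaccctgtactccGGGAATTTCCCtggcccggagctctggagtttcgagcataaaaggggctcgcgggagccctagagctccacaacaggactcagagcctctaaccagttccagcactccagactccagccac
Cxcl2: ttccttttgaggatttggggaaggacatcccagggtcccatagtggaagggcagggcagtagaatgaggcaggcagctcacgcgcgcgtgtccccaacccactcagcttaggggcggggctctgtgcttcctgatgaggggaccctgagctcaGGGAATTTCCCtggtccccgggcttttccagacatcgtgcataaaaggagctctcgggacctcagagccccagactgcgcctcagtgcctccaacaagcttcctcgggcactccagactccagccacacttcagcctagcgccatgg
Cxcl15: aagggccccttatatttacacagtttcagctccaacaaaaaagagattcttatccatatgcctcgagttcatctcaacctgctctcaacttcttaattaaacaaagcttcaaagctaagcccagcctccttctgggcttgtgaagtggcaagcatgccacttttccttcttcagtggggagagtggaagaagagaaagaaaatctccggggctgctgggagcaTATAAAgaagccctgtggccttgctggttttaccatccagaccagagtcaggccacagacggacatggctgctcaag
The kappa B motif (searched by name on both strands, 10 letters) began at position -71 of Cxcl1 and -97 of Cxcl2, counted from the start of transcription, each time with an overlapping match on the other strand. It was also matched in the windows of Lif at -178 and Csf1 at -154, and not in those of Cxcl14 and Cxcl15. Of 32851 promoters in the table, 8.46% held it. TATAAA was matched at -27 of Cxcl15 and in 13.6% of all promoters. Of the 6 member windows in the table, Lif alone held the AP-1 motif TGANTCA (7.81% of all promoters), Cxcl14 alone held the STAT motif TTCNNNGAA (8.30%), and none held TGACGTCA, the full cyclic AMP response element (1.79%), or the C/EBP motif TTNNGCAA (10.8%). TGACG, the core of that element, was matched in Cxcl1 alone, at -215 and -194 (20.8% of all promoters). A match describes letters only. Aligned end to end, the Cxcl1 and Cxcl2 windows were identical in 55.6% of columns, Cxcl1 and Cxcl15 in 52.6%, and Cxcl2 and Cxcl15 in 50.3%.

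**Figure D1:**
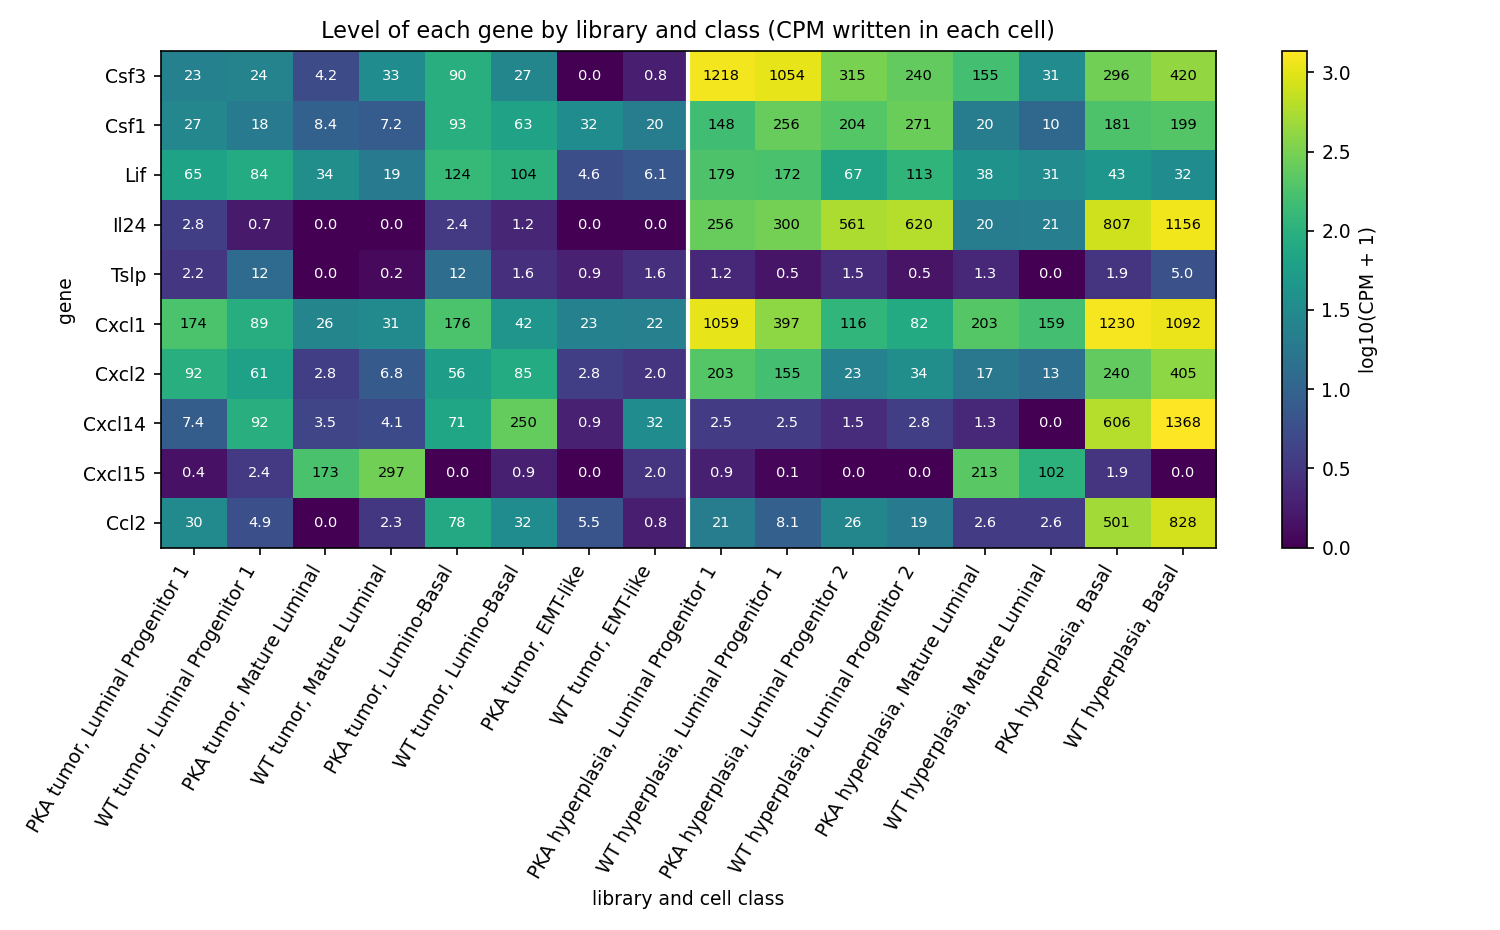
Levels of the 10 genes as CPM, written in each box, with genes as rows and each authors' class of each library as columns. Colour is log10(CPM + 1), and each box is 1 sum over cells with no replicate. Csf3 is highest in Luminal Progenitor 1 of hyperplasia (1218 and 1054 CPM), Cxcl15 in Mature Luminal of every library, and Cxcl14 and Il24 in Basal.

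Csf3, the cytokine that drives neutrophil production, was a transcript of hyperplastic luminal progenitors. Over all annotated cells it had 21.7 CPM in PKA tumor, 24.4 CPM in WT tumor, 986 CPM in PKA hyperplasia and 832 CPM in WT hyperplasia. Both hyperplasia libraries were far above both tumor libraries, whatever the genotype. Luminal Progenitor 1 held 88.2% of Csf3 UMIs in PKA tumor, 43.1% in WT tumor, 93.5% in PKA hyperplasia and 92.2% in WT hyperplasia; in WT tumor, Lumino-Basal cells held another 29.7% and Mature Luminal cells 27.0%. Per class, Csf3 in Luminal Progenitor 1 reached 23.1, 24.5, 1218 and 1054 CPM in the same order of libraries, against 296 CPM (PKA hyperplasia) and 420 CPM (WT hyperplasia) in Basal and 315 and 240 CPM in Luminal Progenitor 2. A UMI of Csf3 was found in 31.6% (30.0 to 33.4) of Luminal Progenitor 1 cells of PKA hyperplasia and 30.7% (28.9 to 32.4) of WT hyperplasia. Free RNA can give such UMIs: the share in Mature Luminal cells of the same libraries was 12.4% and 10.3%, at median depths of 3051 and 3177.5 UMIs against 2588 and 2690 UMIs in Luminal Progenitor 1. In tumors the share in Luminal Progenitor 1 was 4.87% in PKA tumor and 5.12% in WT tumor. In WT tumor a larger share of Mature Luminal cells had one, 12.6% (10.5 to 15.0), at 33.0 CPM, against 3.39% (1.25 to 7.23) and 4.19 CPM in PKA tumor, so Csf3 there did not mark luminal progenitors. No cell labelled EMT-like in PKA tumor had one (0 of 238 cells, which allows a share of up to 1.26%), and 0.260% of those of WT tumor did.

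Most Csf3 UMIs of hyperplastic Luminal Progenitor 1 were in a minority of its cells. Cells with at least 10 Csf3 UMIs numbered 288 of the Luminal Progenitor 1 cells of PKA hyperplasia and 274 of WT hyperplasia, and they held 81.9% and 79.7% of that class's Csf3 UMIs. The same count was 6 cells in PKA tumor and 1 cell in WT tumor. A Luminal Progenitor 1 cell with any Csf3 carried 3.05 UMIs on average in PKA tumor, 2.14 in WT tumor, 10.7 in PKA hyperplasia and 9.92 in WT hyperplasia. Both the share of cells and the amount per cell were therefore lower in tumors. With every cell thinned to 2000 UMIs (158, 148, 775 and 632 shallower Luminal Progenitor 1 cells left out), the shares were 2.55% in PKA tumor, 3.28% in WT tumor, 28.6% in PKA hyperplasia and 27.8% in WT hyperplasia.

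Csf1 and Lif were spread more evenly than Csf3 in tumors, and by a smaller margin in hyperplasia. The top 1% of all cells held 57.3% of Csf3, 22.7% of Csf1 and 26.0% of Lif UMIs in PKA tumor. These shares were 49.2%, 29.9% and 23.7% in WT tumor. They were 26.4%, 21.1% and 24.6% in PKA hyperplasia, and 24.6%, 15.3% and 20.3% in WT hyperplasia. Csf1, the growth factor of macrophages, had 27.6 CPM in PKA tumor, 28.2 CPM in WT tumor, 148 CPM in PKA hyperplasia and 248 CPM in WT hyperplasia. It was the member with the widest gap below wild type in hyperplasia after Cxcl14, and the gap was present in Luminal Progenitor 1 (148 CPM in PKA hyperplasia, 256 CPM in WT hyperplasia). In tumors Csf1 was highest in Lumino-Basal cells (92.8 CPM in PKA tumor, 62.6 CPM in WT tumor). Lif, a cytokine of the interleukin-6 family, had 59.6, 68.4, 148 and 150 CPM in PKA tumor, WT tumor, PKA hyperplasia and WT hyperplasia. Its share of Luminal Progenitor 1 cells was near even across the libraries as counted (16.9%, 20.2%, 20.2% and 22.4%). At 2000 UMIs per cell the shares were 8.70% in PKA tumor, 11.8% in WT tumor and 18.7% in both hyperplasia libraries, so the near-even shares went with the deeper tumor cells.

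Il24, a cytokine of the interleukin-10 family that signals to epithelial cells, was far higher in hyperplasia than in tumors. It had 40 UMIs in PKA tumor (2.39 CPM) and 15 UMIs in WT tumor (0.612 CPM), against 3232 UMIs in PKA hyperplasia (304 CPM) and 4167 UMIs in WT hyperplasia (386 CPM). Its level was highest in Basal cells (807 CPM in PKA hyperplasia, 1156 CPM in WT hyperplasia), then in Luminal Progenitor 2 (561 and 620 CPM), then in Luminal Progenitor 1 (256 and 300 CPM). Mature Luminal cells had 19.7 and 20.8 CPM. The same order of classes held in both hyperplasia libraries. A UMI was found in 32.9% (26.8 to 39.4) of Basal cells of PKA hyperplasia and 44.5% (37.5 to 51.7) of WT hyperplasia, in 26.4% and 34.9% of Luminal Progenitor 2 cells and in 17.6% and 19.7% of Luminal Progenitor 1 cells. No Mature Luminal tumor cell had an Il24 UMI, which allows a share of up to 1.69% in PKA tumor (177 cells) and 0.344% in WT tumor (872 cells).

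Tslp, an epithelial cytokine that acts on dendritic and T helper cells, was at the limit of detection, with 36 UMIs in PKA tumor, 137 in WT tumor, 14 in PKA hyperplasia and 7 in WT hyperplasia. In WT tumor 1 Luminal Progenitor 1 cell held 88 of the 137 UMIs (64.2%). The gap between the tumor libraries in Tslp rested on few cells. Without the 5 cells of each library with most Tslp UMIs, the log2 ratio of PKA tumor over WT tumor was -0.10, against -1.38 with them. That setting was added after seeing the data.

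Cxcl1, a neutrophil-attracting chemokine, was higher in the PKA library at both stages. It had 152 CPM in PKA tumor against 58.2 CPM in WT tumor, with 889 CPM in PKA hyperplasia and 352 CPM in WT hyperplasia. Luminal Progenitor 1 held most of it, with 94.7% of UMIs in PKA tumor, 65.9% in WT tumor, 90.1% in PKA hyperplasia and 82.1% in WT hyperplasia. Within that class Cxcl1 had 174, 89.5, 1059 and 397 CPM. The share of Luminal Progenitor 1 cells with a Cxcl1 UMI was 21.2% (19.5 to 23.0) in PKA tumor and 11.2% (9.97 to 12.6) in WT tumor, and 33.6% (31.8 to 35.3) in PKA hyperplasia and 17.6% (16.2 to 19.1) in WT hyperplasia. At 2000 UMIs per cell the shares were 12.1% and 7.11% in tumors and 30.1% and 15.7% in hyperplasia, PKA before WT. In Basal cells of hyperplasia Cxcl1 had 1230 CPM in PKA hyperplasia and 1092 CPM in WT hyperplasia, and 1021 and 229 CPM without cells holding at least 2 markers of other cell types. In WT hyperplasia 8 Basal cells had at least 10 Cxcl1 UMIs, held 80.4% of the class's Cxcl1 and all carried such markers.

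Cxcl2, a close relative of Cxcl1, differed less between libraries than Cxcl1 and was held by few cells. It had 77.6 CPM in PKA tumor, 51.1 CPM in WT tumor, 169 CPM in PKA hyperplasia and 135 CPM in WT hyperplasia. In Luminal Progenitor 1 a UMI was found in 5.24%, 3.46%, 5.89% and 4.22% of cells. The top 1% of all cells held 71.4% of Cxcl2 UMIs in PKA tumor, 76.4% in WT tumor, 69.4% in PKA hyperplasia and 77.9% in WT hyperplasia. The number of Luminal Progenitor 1 cells with at least 10 Cxcl2 UMIs was 39, 25, 46 and 35 in that order. These counts are not matched for depth: the median Luminal Progenitor 1 cell had 5970 and 4143 UMIs in PKA tumor and WT tumor, and 2588 and 2690 UMIs in PKA hyperplasia and WT hyperplasia. Of 703 windows of 98 bases, the read length, at the 3' ends of Cxcl2 transcripts, 13 also occur in Cxcl3, so a few reads could belong to either gene; no window of the other members was shared with another gene.

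Cxcl15, a chemokine of the same cluster, was a Mature Luminal transcript. That class held 97.6% of Cxcl15 UMIs in PKA tumor, 97.6% in WT tumor, 95.3% in PKA hyperplasia and 97.5% in WT hyperplasia. Library sums therefore moved with the number of Mature Luminal cells (177, 872, 251 and 116 cells). Over all cells Cxcl15 had 15.2 CPM in PKA tumor against 60.6 CPM in WT tumor, with 16.0 CPM in PKA hyperplasia and 3.70 CPM in WT hyperplasia. Within Mature Luminal cells the levels were 173 CPM in PKA tumor, 297 CPM in WT tumor, 213 CPM in PKA hyperplasia and 102 CPM in WT hyperplasia. The order of the libraries was the same within the class, and the gaps were smaller: the log2 ratio of PKA tumor over WT tumor was -0.78 (-0.98 to -0.58) within the class, against -1.999 over all cells, and that of PKA hyperplasia over WT hyperplasia was 1.07 (0.56 to 1.61), against 2.11. A UMI was found in 41.8% and 41.6% of Mature Luminal cells of PKA tumor and WT tumor, and in 34.3% and 22.4% of those of PKA hyperplasia and WT hyperplasia. In Luminal Progenitor 1 the shares were 0.278%, 0.896%, 0.243% and 0.0367%. Dcn, a fibroblast marker, was also found in Mature Luminal cells. It had 27.9 CPM in PKA tumor, 900 CPM in WT tumor, 117 CPM in PKA hyperplasia and 599 CPM in WT hyperplasia. The other fibroblast markers added little: all 5 together had 30.0, 901, 120 and 609 CPM in that order, with 2, 3, 2 and 1 of them at 0. The part of Dcn in the Cxcl15 levels was not tested.

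Cxcl14, a chemokine made by epithelia and fibroblasts, was a Basal transcript in hyperplasia and a Lumino-Basal and luminal progenitor transcript in WT tumor. Basal cells held 93.1% of its UMIs in PKA hyperplasia and 95.5% in WT hyperplasia, at 606 and 1368 CPM. In WT tumor, Lumino-Basal cells held 61.0% and Luminal Progenitor 1 held 35.3%, at 250 and 92.2 CPM. The same classes of PKA tumor had 70.8 and 7.37 CPM. Luminal Progenitor 1 of hyperplasia had 2.48 CPM (PKA) and 2.55 CPM (WT), with a UMI in 0.451% and 0.698% of cells, against 55.3% and 55.5% of Basal cells. The level in Luminal Progenitor 1 of WT tumor rested on few cells: 30 of 2343 cells with at least 10 Cxcl14 UMIs held 66.0% of that class's Cxcl14, and 18 of the 30 had a UMI of Krt14, as did 47 of the 56 such Lumino-Basal cells. The Lumino-Basal class had 66 cells in PKA tumor and 1198 in WT tumor, so the whole-library gap also moved with class numbers.

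Ccl2, the monocyte chemokine, came from very few cells. It had 27.2 CPM in PKA tumor against 11.4 CPM in WT tumor, with 43.2 CPM in PKA hyperplasia and 40.6 CPM in WT hyperplasia. Basal cells held 55.9% of its UMIs in PKA hyperplasia and 76.0% in WT hyperplasia. With a threshold chosen after seeing the values, 8 Basal cells of PKA hyperplasia and 7 of WT hyperplasia had at least 5 Ccl2 UMIs and held 94.9% and 91.9% of the class's Ccl2. Most of them carried stromal RNA: 6 of the 8 and 4 of the 7 had a UMI of Dcn, 6 and 5 had one of a fibrillar collagen, 6 and 6 had at least 2 markers of other cell types, and 2 and 2 had one of the basal keratin Krt14. In tumors the corresponding cells lacked that profile. The 22 Luminal Progenitor 1 cells of PKA tumor and 13 Lumino-Basal cells of WT tumor with at least 5 Ccl2 UMIs all had UMIs of Krt8 and Epcam, both epithelial markers, and none had one of Dcn, although 5 of the 22 had at least 2 markers of other types. Luminal Progenitor 1 held 91.7% of Ccl2 in PKA tumor (30.2 CPM, against 4.86 CPM in WT tumor), and Lumino-Basal held 77.1% in WT tumor (32.2 CPM, with 78.1 CPM in PKA tumor).

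The Basal class of hyperplasia held RNA of other cell types, and some members moved with it. At least 2 other-type markers were found in 33 of 228 Basal cells of PKA hyperplasia (14.5%) and 35 of 200 of WT hyperplasia (17.5%). The summed markers in Basal were 801 CPM in PKA hyperplasia and 1582 CPM in WT hyperplasia for fibroblasts (none of 5 at 0), 9.75 and 139 CPM for leukocytes (2 and 1 of 5 at 0), 1.95 and 276 CPM for macrophages (4 and 0 of 5 at 0), 58.5 and 206 CPM for endothelium, and 93.6 and 112 CPM for pericytes. All 4 T and B cell markers were at 0 in both, and S100a8 was the only neutrophil marker found, with Csf3r and Retnlg without a row in the files. Without those cells Basal Ccl2 was 51.3 CPM in PKA hyperplasia and 75.3 CPM in WT hyperplasia, against 501 and 828 CPM with them. Cxcl1 without them was 1021 CPM in PKA hyperplasia and 229 CPM in WT hyperplasia. Most Basal Cxcl1 of WT hyperplasia was thus in cells with at least 2 other-type markers, and most of that of PKA hyperplasia was not. Single stromal markers were still present in PKA hyperplasia. There 18 Basal cells with at least 10 Cxcl1 UMIs held 65.1% of the class's Cxcl1. Of these, 8 had a UMI of Dcn and 5 one of a fibrillar collagen, and 5 had at least 2 other-type markers. Cxcl14 was 650 and 1476 CPM and Il24 was 916 and 1470 CPM without cells holding at least 2 other-type markers, above the values with them. That filter does not take out every cell with a stromal marker. In WT hyperplasia 14 Basal cells with at least 10 Cxcl14 UMIs held 44.5% of the class's Cxcl14. Of these, 9 had a UMI of Dcn, 5 one of a fibrillar collagen and 8 one of Krt14, and 5 had at least 2 other-type markers. Whether cells with other-type markers were doublets or cells of another type was not tested.

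**Figure D2:**
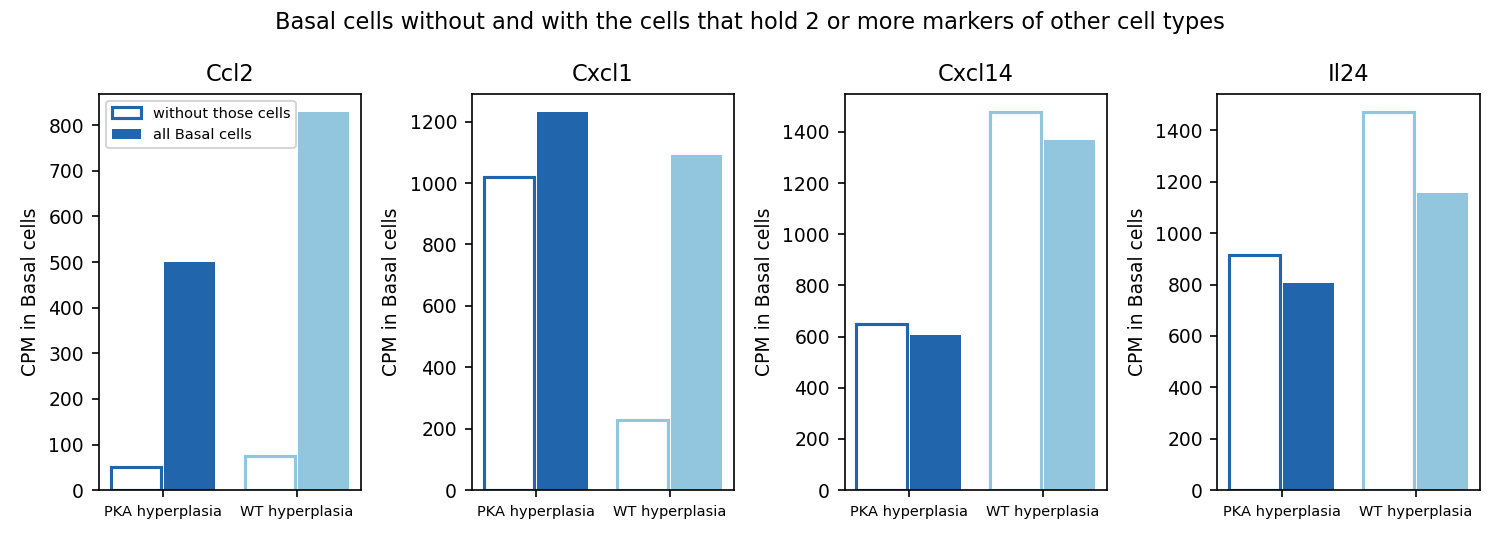
Levels in Basal cells of PKA hyperplasia and WT hyperplasia in CPM (y axis) for Ccl2, Cxcl1, Cxcl14 and Il24; filled bars are all Basal cells, open bars leave out cells with UMIs of at least 2 markers of other cell types, and each bar is 1 sum of 1 library, with no replicate error to draw. The open bars of Ccl2 are far below the filled ones in both libraries and that of Cxcl1 is at 229 CPM in WT hyperplasia, while those of Cxcl14 and Il24 are not below the filled bars.

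The first comparison set PKA tumor against WT tumor. Cxcl1 was higher in PKA tumor by a log2 ratio of 1.39 (1.29 to 1.48), Ccl2 by 1.26 (1.04 to 1.48) and Il24, on 40 and 15 UMIs, by 1.96 (1.08 to 2.93). Cxcl14 was 13.7-fold lower in PKA tumor, a log2 ratio of -3.77 (-4.03 to -3.53), Cxcl15 was 3.997-fold lower, at -1.999 (-2.196 to -1.81) and Tslp one of -1.38 (-1.95 to -0.84). Cxcl2 had a ratio of 0.60 (0.49 to 0.72). The remaining members lay close in both tumors: Csf3 had a ratio of -0.17 (-0.36 to 0.02), Csf1 one of -0.03 (-0.20 to 0.14) and Lif one of -0.20 (-0.31 to -0.09). Of 17944 genes with at least 20 UMIs in the 2 libraries together, 7.86% were more than 2-fold higher and 6.58% more than 2-fold lower in PKA tumor. Among the 10 members the counts were 3 higher and 3 lower. Within Luminal Progenitor 1 the background was 8.53% higher and 4.62% lower, and the members were 2 higher (Il24 and Ccl2) and 3 lower (Tslp, Cxcl14 and Cxcl15). The Tslp call there leaned on 1 cell of WT tumor, which held 72.7% of the class's Tslp UMIs. Within the class Cxcl1 had a ratio of 0.96 (0.85 to 1.07), Ccl2 one of 2.64 (2.21 to 3.09) and Cxcl14 one of -3.64 (-3.95 to -3.35). Cxcl1 and Ccl2 were thus higher, and Cxcl14 lower, in the PKA library within the same class. PKA tumor also had the higher share of cells with at least 2 other-type markers (11.9%, against 4.28% in WT tumor), not matched for depth. In its Luminal Progenitor 1, neutrophil markers summed to 324 CPM and pericyte markers to 39.5 CPM, against 16.0 and 30.9 CPM in WT tumor. Leukocyte, macrophage, fibroblast and endothelial markers summed to 4.34, 5.20, 4.92 and 1.81 CPM, against 4.19, 4.67, 18.3 and 3.62 CPM in WT tumor. Of the 4 neutrophil markers, 2 were at 0 in this class of PKA tumor and 3 in that of WT tumor. The neutrophil sum was also high in Luminal Progenitor 1 of hyperplasia, at 581 CPM with PKA and 350 CPM in wild type. Which cells this RNA came from was not tested. Without cells holding at least 2 other-type markers, the ratios were 1.33 for Cxcl1, 1.03 for Ccl2, 2.40 for Il24, -4.06 for Cxcl14, -1.84 for Cxcl15 and -1.36 for Tslp.

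The second comparison set PKA hyperplasia against WT hyperplasia. Cxcl1 was 2.53-fold higher in PKA hyperplasia, with a log2 ratio of 1.34 (1.28 to 1.39) that was 0.59 when the classes were weighted equally, and Cxcl15 was 4.31-fold higher, with 2.11 (1.604 to 2.64). Tslp, on 14 and 7 UMIs, had a ratio of 1.02 with an interval of -0.38 to 2.57. Csf1 was lower in PKA hyperplasia by a ratio of -0.75 (-0.84 to -0.66), as were Cxcl14 at -0.77 (-0.96 to -0.57) and Il24 at -0.35 (-0.41 to -0.28). Csf3 at 0.25 (0.20 to 0.29) and Cxcl2 at 0.32 (0.22 to 0.43) were slightly higher, and the intervals of Lif at -0.02 (-0.12 to 0.09) and Ccl2 at 0.09 (-0.10 to 0.28) held 0. Few genes differed between these libraries, with 2.95% of 14547 more than 2-fold higher and 2.89% more than 2-fold lower. The members were 3 higher (Tslp, Cxcl1 and Cxcl15) and 0 lower. In Luminal Progenitor 1, where 2.45% of genes were higher and 3.05% lower, 8 members had enough UMIs, and of these 2 were higher (Cxcl1 at 1.42, 1.36 to 1.47, and Ccl2 at 1.34, 0.91 to 1.78) and 0 lower. Csf1 there had -0.79 (-0.89 to -0.68) and Cxcl14, near its floor in this class, had -0.04.

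**Figure D3:**
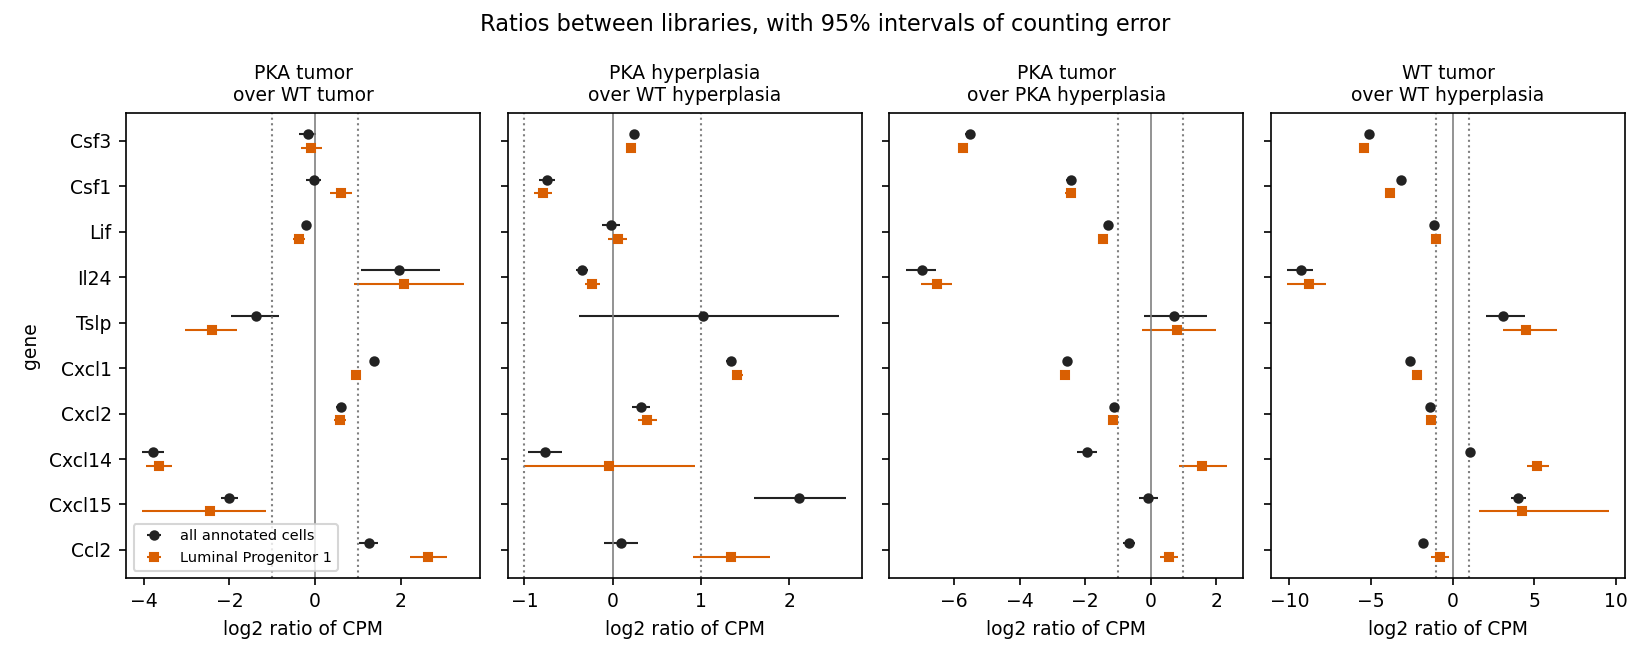
Log2 ratios of CPM (x axis) of each member (rows) in the 4 comparisons (panels, the library named first over the second), for all annotated cells (black circles) and Luminal Progenitor 1 (orange squares); lines are 95% intervals for counting error in 1 library per group, and dotted lines mark 2-fold. Cxcl1 is higher with PKA at both stages, while Csf3, Csf1, Il24, Cxcl1 and Cxcl2 are all lower in tumor than in hyperplasia of the same genotype.

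The third and the fourth comparisons set each tumor against the hyperplasia of its genotype, and they share libraries with the first pair of comparisons. Csf3, Csf1, Lif, Il24, Cxcl1 and Cxcl2 were lower in tumor in both genotypes. Csf3 was 45.5-fold lower in PKA tumor than in PKA hyperplasia, a log2 ratio of -5.51 (-5.66 to -5.36), and 34.1-fold lower in WT tumor than in WT hyperplasia, at -5.09 (-5.21 to -4.97). Il24 had ratios of -6.99 (-7.48 to -6.54) with PKA and -9.30 (-10.14 to -8.58) in wild type, Csf1 had -2.42 (-2.57 to -2.27) and -3.14 (-3.26 to -3.02), Cxcl1 had -2.55 and -2.60, Cxcl2 had -1.13 and -1.40, and Lif had -1.32 and -1.13. Over all cells Cxcl14 had -1.94 (-2.24 to -1.65) with PKA and 1.07 (0.937 to 1.1996) in wild type. Neither value held under every setting: with PKA the ratio was 1.52 with classes weighted equally and 1.57 within Luminal Progenitor 1, and in wild type it was 0.86 with TMM factors and 0.63 as a mean per cell. The Basal class, which held most Cxcl14 of hyperplasia, was not among the tumor classes. Cxcl15 had -0.08 (-0.36 to 0.21) with PKA and 4.03 (3.58 to 4.52) in wild type, where Mature Luminal cells numbered 872 in the tumor and 116 in the hyperplasia. Ccl2 had -0.67 with PKA and -1.83 in wild type, the second of which was -0.02 without cells holding at least 2 other-type markers.

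The shift of all genes has to be set beside these ratios, because the median log2 ratio of all genes was 0.26 for PKA tumor over PKA hyperplasia and 0.35 for WT tumor over WT hyperplasia, against -1.63 and -1.62 for the members. With PKA, 26.4% of 16515 genes were more than 2-fold higher and 9.47% more than 2-fold lower in the tumor, and the members were 0 higher and 7 lower. In wild type, 28% of 17153 genes were higher and 9.75% lower, and the members were 3 higher (Tslp, Cxcl14 and Cxcl15) and 7 lower. Within Luminal Progenitor 1 the background with PKA was 29% higher and 9.14% lower, with 1 member higher (Cxcl14, 1.57, 0.87 to 2.34) and 6 lower of 9. In wild type it was 26.2% higher and 11.1% lower, with 3 members higher and 6 lower of 10. Csf3 within the class had -5.72 (-5.88 to -5.56) with PKA and -5.43 in wild type. Cxcl14 within the class, where hyperplasia had almost none, had 5.18 (4.54 to 5.90) in wild type.

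Within Luminal Progenitor 1 cells the members were detected together more often in some pairs than in others. All shares here are after thinning to 2000 UMIs, since deeper cells hold more of everything. Cxcl1 was found in 41.2% (27.6 to 55.8) of cells with Csf3 and 11.3% of cells without it in PKA tumor, and in 16.7% (8.92 to 27.3) and 6.78% in WT tumor. The shares were 55.6% (51.6 to 59.6) with Csf3 and 19.9% without in PKA hyperplasia, and 31.1% (27.4 to 35.0) and 9.81% in WT hyperplasia. Cells with Csf3 therefore had Cxcl1 more often in all 4 libraries. Cxcl2 was found in 16.1% of cells with Cxcl1 and 1.88% without in PKA tumor, 10.9% and 1.96% in WT tumor, 13.1% and 1.49% in PKA hyperplasia, and 14.3% and 1.87% in WT hyperplasia. Lif with Csf3 showed 33.3% and 8.06%, 27.8% and 11.3%, 36.8% and 11.4%, and 30.8% and 14.0% in the same order. Il24 did not follow Csf3, with 17.2% of cells with Csf3 and 16.7% without in PKA hyperplasia, and 18.6% for both in WT hyperplasia.

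**Figure D4:**
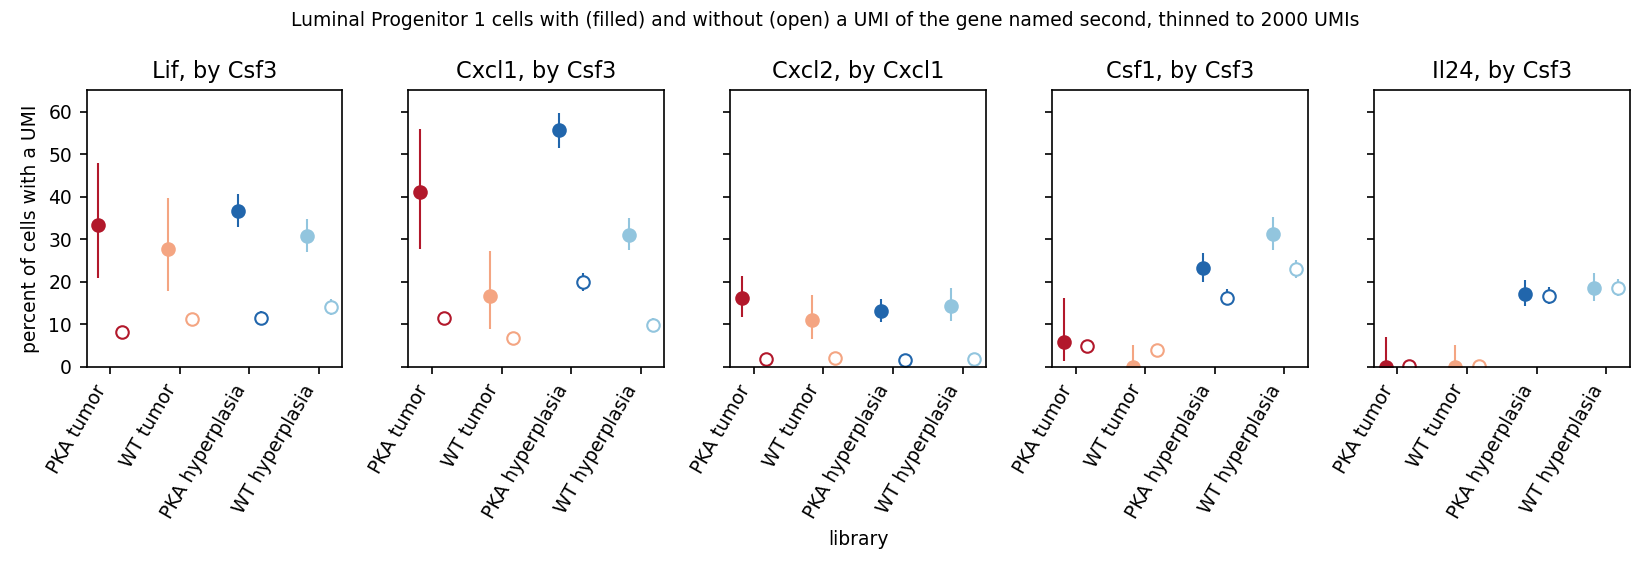
Percent of Luminal Progenitor 1 cells with a UMI of the gene named first in each panel (y axis), among cells with (filled) and without (open) a UMI of the gene named after it, in each library (x axis), thinned to 2000 UMIs per cell; lines are 95% Clopper-Pearson intervals and cells are not replicates. Cxcl1 is found in 55.6% of cells with Csf3 and 19.9% without in PKA hyperplasia, and Il24 shows no such gap.

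Cells rich in Cxcl2 shared a profile in all 4 libraries. Luminal Progenitor 1 cells were grouped by 0, 1 to 9 and at least 10 Cxcl2 UMIs, and levels in CPM were taken from the summed counts of each group. Nfkbia, the NF-kappa B inhibitor and target, had levels in PKA tumor of 1095, 1850 and 2536 CPM over these 3 groups, and WT tumor cells had 1286, 2178 and 2566 CPM. The same groups had 544, 1835 and 2971 CPM in PKA hyperplasia and 625, 1641 and 2736 CPM in WT hyperplasia. For Cxcl1 the levels were 127, 511 and 1269 CPM in PKA tumor, whereas WT tumor had 74.2, 409 and 520 CPM. They were 713, 4264 and 10908 CPM in PKA hyperplasia and 261, 1684 and 6194 CPM in WT hyperplasia. Both climbed with Cxcl2 in each library. Zc3h12a, an RNase that degrades cytokine transcripts, had 131, 241 and 339 CPM in PKA hyperplasia and 91.98, 193 and 403 CPM in WT hyperplasia. Csf3 had 929, 4167 and 8821 CPM in PKA hyperplasia and 880, 3722 and 6312 CPM in WT hyperplasia. Il24 went the other way, with 265, 153 and 53.2 CPM in PKA hyperplasia and 308, 197 and 0 CPM in WT hyperplasia, the last on 35 cells. The richest group had 39, 25, 46 and 35 cells in PKA tumor, WT tumor, PKA hyperplasia and WT hyperplasia, which limits its precision.

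**Figure D5:**
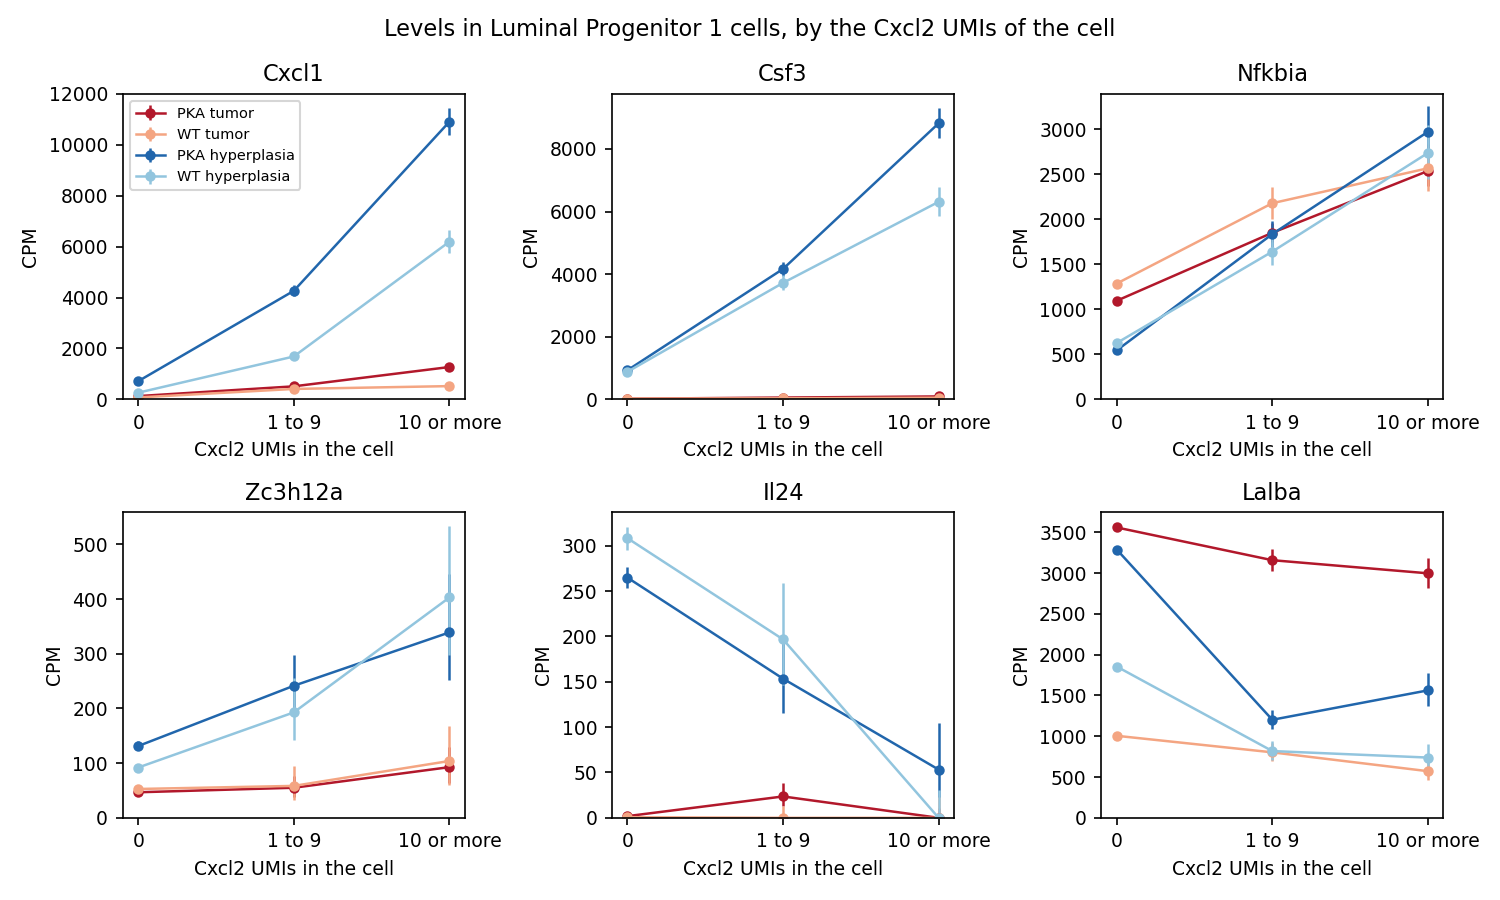
Levels in CPM (y axis, linear from 0, its own scale in each panel) of Cxcl1, Csf3, Nfkbia, Zc3h12a, Il24 and Lalba in Luminal Progenitor 1 cells with 0, 1 to 9 and 10 or more Cxcl2 UMIs (x axis), 1 line per library; lines on points are 95% Poisson intervals for counting error. Cxcl1 and Nfkbia climb with Cxcl2 in the 4 libraries, Nfkbia to 2536 CPM in PKA tumor and 2971 CPM in PKA hyperplasia, while Il24 in hyperplasia does not.

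Grouping the hyperplastic Luminal Progenitor 1 cells by Csf3 gave a similar order. With 0, 1 to 9 and at least 10 Csf3 UMIs, Cxcl1 had 403, 1271 and 4664 CPM in PKA hyperplasia and 148, 444 and 1845 CPM in WT hyperplasia. Cells of the PKA library had more Cxcl1 than those of the WT library at each level of Csf3. Lif had 91.1, 257 and 555 CPM in PKA hyperplasia and 103, 193 and 554 CPM in WT hyperplasia, and Nfkbia had 435, 771 and 1686 CPM and 469, 852 and 1732 CPM. Lalba, the milk protein alpha-lactalbumin, had 3705, 2453 and 1315 CPM in PKA hyperplasia and 2194, 1159 and 685 CPM in WT hyperplasia. Cebpb, a transcription factor, was level at 31.9, 33.1 and 33.3 CPM in PKA hyperplasia and 33.3, 30.2 and 38.7 CPM in WT hyperplasia. Lalba was thus lower, and Nfkbia higher, in the cells with most Csf3.

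Grouping the same cells by Il24 gave another order. With 0, 1 to 9 and at least 10 Il24 UMIs (2376, 455 and 54 cells in PKA hyperplasia, and 2185, 471 and 66 cells in WT hyperplasia), Lalba had 2860, 3874 and 7826 CPM in PKA hyperplasia and 1524, 2543 and 4294 CPM in WT hyperplasia. Nfkbia had 689, 516 and 185 CPM in PKA hyperplasia and 755, 504 and 223 CPM in WT hyperplasia. Cxcl1 had 1139, 811 and 290 CPM in PKA hyperplasia and 445, 259 and 39.4 CPM in WT hyperplasia, and Csf3 had 1291, 989 and 540 CPM and 1132, 832 and 472 CPM. Cells rich in Il24 were therefore low in Cxcl1, Csf3 and Nfkbia and high in Lalba in both hyperplasia libraries. Cd14, a luminal progenitor marker, had 1122, 978 and 970 CPM in PKA hyperplasia and 1283, 1291 and 1067 CPM in WT hyperplasia. CPM within a group sum to a fixed total, so a transcript that rises takes from the others. Of that total Lalba held 7826 CPM in the group richest in Il24 of PKA hyperplasia and 4294 CPM in that of WT hyperplasia. Its part in the lower levels was not tested.

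Receptors for these ligands were nearly undetected in the annotated cells, with some exceptions. Of 14 receptor genes on the list, 11 had rows in the files. Cxcr2, the neutrophil receptor of Cxcl1 and Cxcl2, had at most 1 UMI in any library, Ccr2, the receptor of Ccl2, had 3, 13, 0 and 1 UMIs in PKA tumor, WT tumor, PKA hyperplasia and WT hyperplasia, and Csf1r had 14, 19, 8 and 9. Receptors that epithelium expresses were found: Il6st, the shared signalling chain of the interleukin-6 family, had 33.5, 23.2, 72.4 and 70.2 CPM, and Lifr had 27.0, 25.1, 18.7 and 12.4 CPM. Crlf2, a chain of the Tslp receptor, had 77.2, 43.1, 32.5 and 49.1 CPM. Il7r, the other chain of that receptor and also on the list, had only 0, 2, 3 and 0 UMIs in the same order. Of 6 measured receptors none was past 2-fold in PKA tumor over WT tumor, and of 5 in PKA hyperplasia over WT hyperplasia 1 was higher, Ackr1, a chemokine-binding receptor of endothelium in other tissues, with 47 UMIs against 0. In tumor over hyperplasia 3 were higher and 2 lower of 7 with PKA, and 3 higher and 1 lower of 6 in wild type. Over all genes the shares were 26.4% higher and 9.47% lower with PKA, and 28% and 9.75% in wild type.

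Of the other secreted ligands on the list (35 genes, 34 with rows), 6 were higher and 8 lower of 25 measured in PKA tumor over WT tumor, and 4 were higher and 7 lower of 30 in PKA hyperplasia over WT hyperplasia. Over all genes 7.86% were higher and 6.58% lower in the tumor comparison, and 2.95% and 2.89% in the hyperplasia comparison. Il6 had 27 UMIs in PKA tumor and 4 in WT tumor, a log2 ratio of 3.30. Cxcl10 had a ratio of 1.66, Il1rn, which blocks the interleukin-1 receptor, -2.65, and Ccl5 -2.54 in the same comparison. In hyperplasia Tnfsf11 (RANK ligand) had 1 UMI in PKA hyperplasia and 53 in WT hyperplasia, a ratio of -5.71 (-11.04 to -3.17), and Spp1 (osteopontin) had 3818 CPM in PKA hyperplasia and 1863 CPM in WT hyperplasia, a ratio of 1.04. In tumor over hyperplasia 4 were higher and 10 lower of 24 with PKA, and 6 higher and 15 lower of 30 in wild type, beside 26.4% higher and 9.47% lower of all genes with PKA and 28% and 9.75% in wild type. The genomic neighbours of Il24 and Ccl2 were lower in tumors as well, Il19 with -5.74 (PKA, -11.09 to -3.17) and -6.01 (wild type, -8.31 to -4.41) and Ccl7 with -3.41 and -5.77. Il15 with 3.05 and 3.10 and Il18 with 2.07 and 2.54 were higher in tumors, so not all epithelial cytokines were lower there.

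Of the 15 regulators of such genes on the list, all were measured and none was past 2-fold between genotypes at either stage. In tumor over hyperplasia 6 of the 15 were higher and 3 lower in each genotype. Of all genes 26.4% (PKA) and 28% (wild type) were higher and 9.47% and 9.75% lower. The list is short, and no test was made of these counts. Cebpb had 649 CPM in PKA tumor, 562 CPM in WT tumor, 31.7 CPM in PKA hyperplasia and 38.8 CPM in WT hyperplasia, with log2 ratios of tumor over hyperplasia of 4.35 with PKA and 3.86 in wild type. Zfp36, which binds and destabilises cytokine transcripts, had ratios of 2.87 and 2.48. Nfkb1, a subunit of NF-kappa B, had 79.5 and 62.7 CPM in PKA tumor and WT tumor, and 203 and 172 CPM in PKA hyperplasia and WT hyperplasia. Zc3h12a had ratios of -1.45 and -1.17. Nfkbia had 1162, 1223, 587 and 586 CPM in the 4 libraries, higher in tumors, where Csf3 and Cxcl1 were lower.

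Across the 16 sums of library and class, the genes whose levels correlated most with a member (Pearson's r of log2(CPM + 10), over 3372 genes) are a description, as the sums share libraries. For Il24 this was Chac1 (0.99), for Cxcl15 Gipc2 (0.998) and Abcc3 (0.99), for Csf1 Trib3 (0.97), for Csf3 Map2k3 (0.95), for Cxcl14 Igfbp2 (0.95) and Krt14 (0.92), for Ccl2 Postn (0.95) and Sparc (0.94), for Cxcl1 Klf13 (0.92) and Nfkb1 (0.91), for Cxcl2 Coq10b (0.89) and for Lif Tcim (0.85). Tslp had too few UMIs. Between members the closest pairs were Cxcl1 with Cxcl2 (0.86), Csf1 with Il24 (0.86), Csf3 with Il24 (0.85) and Csf3 with Cxcl1 (0.82). Csf3 and Il24 were thus close over these sums, which span both stages. Their order of classes within hyperplasia differed, with Csf3 highest in Luminal Progenitor 1 and Il24 highest in Basal. Among hyperplastic Luminal Progenitor 1 cells the picture was mixed: Csf3 was lower in cells with more Il24, but over 0, 1 to 9 and at least 10 Csf3 UMIs Il24 had 269, 267 and 151 CPM in PKA hyperplasia and 294, 322 and 291 CPM in WT hyperplasia.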

How the data were processed

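Single-cell RNA of 4 groups, 1 library each, was measured with the 10x Chromium 3' v2 kit. The labels' protocols give collagenase A, hyaluronidase, trypsin and dispase for glands, collagenase and hyaluronidase after mincing for tumors, and a FACS sort for both. GRCm38 (mm10), STAR 2.5.3a, Subread 1.6.0 with featureCounts, and Cell Ranger are listed in the submitters' processing notes. The deposited values are whole UMI counts of each gene in each barcode, not normalized, and the authors' per-cell tables give the cell classes, which the series design assigns to Monocle2 and marker genes. The mitochondrial fraction the authors deposited was not used. Barcodes without a class (296 in PKA tumor, 619 in WT tumor, 1040 in PKA hyperplasia and 1371 in WT hyperplasia) were left out; no doublet caller was run.

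The members and lists were chosen with earlier results of these data known. Counts were summed by library and class and scaled to CPM of that sum. No test was made, as no group had a second library. Ratios carry exact conditional binomial intervals, levels exact Poisson intervals and shares Clopper-Pearson intervals, all at 95% and for counting error only. Genes with at least 20 UMIs over both libraries were measured, and past 2-fold was the call. A count of 0 allows 3 cells. Cells were thinned to 2000 UMIs with a fixed seed for shares. All members were named; of the other lists, the rule took at most the 4 largest ratios each way per comparison whose whole interval was past 2-fold, and those printed are among them. Nfkbia, Lalba, the receptors with levels, and the groups by UMIs of a member were chosen after their values were seen. Likeness took the highest correlations for members with at least 200 UMIs. Ratio code was tested on simulated counts. R 4.3.3 with edgeR 4.0.16 gave TMM factors as an alternative; all else used SciPy 1.17.1, NumPy 2.4.6, pandas 2.3.3, Biopython 1.88 and matplotlib 3.10.9 under Python 3.11.15. Alternatives changed the scaling, class weighting, depth, and left-out cells.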

Additional observations from a re-analysis of the deposited data

Results flagged for a closer look

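Over all annotated cells Il24, Cxcl14 and Cxcl15 had opposite signs of the same contrast in 2 settings, each with 1 library per group, so no difference between the contrasts was tested. The log2 ratio of PKA over WT for Il24 was 1.96 in tumors, on 40 and 15 UMIs, and -0.35 in hyperplasia, a difference of 2.31. The ratio of tumor over hyperplasia for Cxcl14 was -1.94 with PKA and 1.07 in wild type, a difference of -3.01; within Luminal Progenitor 1 both were positive, at 1.57 and 5.18, and with classes weighted equally they were 1.52 and 5.24. The ratio of PKA over WT for Cxcl15 was -1.999 in tumors and 2.11 in hyperplasia, a difference of -4.11; within Mature Luminal cells the ratios were -0.78 and 1.07.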

How the results depend on the processing

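The number of members past 2-fold stayed within 1.5 times of its value in each of 56 recomputations. Of 260 recomputed ratios past 2-fold, 245 stayed past it, 1 of them with the opposite sign. Those that did not were Tslp for PKA tumor over WT tumor (-0.95 as a mean per cell, -0.47 thinned, -0.10 without its 5 richest cells) and for PKA hyperplasia over WT hyperplasia (0.017 with classes weighted equally, 0.66 with all barcodes, 0.026 thinned), Cxcl15 for PKA tumor over WT tumor with classes weighted equally (-0.80), Cxcl1 for PKA hyperplasia over WT hyperplasia with classes weighted equally (0.59), Cxcl14 for WT tumor over WT hyperplasia with TMM factors (0.86), as a mean per cell (0.63) and with milk protein, mitochondrial and ribosomal genes taken out of the totals (0.996), and with classes weighted equally Lif (-0.99) and Ccl2 (-0.60, and -0.02 without cells holding other-type markers) for WT tumor over WT hyperplasia. With classes weighted equally 2 ratios turned: Tslp for PKA tumor over WT tumor (0.027) and Cxcl14 for PKA tumor over PKA hyperplasia (1.52). Thinned to 2000 UMIs, Lif with minus without Csf1 in PKA tumor was -3.79 percentage points and Csf1 with minus without Lif was -2.22, both turned; the cause was not tested. No paired analysis was possible because each group had 1 library, and no replicate could be left out. Tslp and tumor Il24 rest on few UMIs.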
